A study of Mus musculus with 11 samples.

Results

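The lysosomal nutrient-sensing switch was followed in the mouse liver through the Rag GTPases *Rraga*, *Rragc* and *Rragd*, the Ragulator scaffold *Lamtor1*, the folliculin complex (*Flcn*, *Fnip1* and *Fnip2*) and the MiT/TFE transcription factors *Tfeb*, *Tfe3* and *Mitf*. These 10 genes, of 13669 in the count table, were matched by gene symbol, and all 10 were among the 13334 genes tested. The group was assembled around *Rragd*, which was chosen by its measured rise in the comparison described here. *Rragd* values are therefore given as a description with no test, and the other 9 genes were tested with all genes.

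On the lysosomal surface, a Rag heterodimer pairs RagA or RagB with RagC or RagD, and Ragulator, which *Lamtor1* tethers to the membrane, holds the pair in place. When amino acids are plentiful the active Rags recruit mTORC1, the kinase complex that drives anabolism. Folliculin, with its partners FNIP1 and FNIP2, is the GTPase-activating protein for RagC and RagD, and the RagC/D state decides whether TFEB and TFE3 are brought to mTORC1, phosphorylated and kept in the cytosol. Freed from this control, the MiT/TFE factors enter the nucleus and switch on lysosomal and autophagy genes through E-box elements, and *Rragd* is itself known as one of their targets. In the liver this circuit links feeding and fasting to lysosomal breakdown and lipid use. Protein location and phosphorylation, on which the circuit runs, cannot be read from mRNA counts.

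Livers came from 11 male wild-type C57BL/6J mice on regular chow. All had received a recombinant adeno-associated virus (rAAV8) by tail vein, with the liver-specific LP1 promoter directing expression to hepatocytes, so the controls also carried a vector. In 6 mice the virus expressed a tough decoy (AAV-TuD), an RNA that holds a site each for *miR-379* and for *miR-541* to bind, and in 5 a negative control sequence was expressed (AAV-NC). Samples are numbered as labelled (AAV-NC 1, 2, 6, 7 and 8, and AAV-TuD 3, 4, 5, 9, 10 and 11). The study's methods describe mice obtained when young, acclimated for weeks before use, and killed after a short fast, weeks to months after the vector. The age and the time after the vector of each of these 11 mice are not given in the sources used here. RNA was taken from whole liver, where fewer cells of a type and less RNA per cell cannot be told apart. The libraries read the 3′ ends of polyadenylated RNA, so counts did not grow with transcript length, and isoforms that differ at their 5′ ends, as those of *Mitf* do, were counted as 1 gene. Between 8148531 and 12043959 reads were counted per liver. Major urinary protein (*Mup*) transcripts took more than 25% of the reads in 3 livers (AAV-NC 7 and AAV-TuD 3 and 5), and counts were therefore scaled by TMM factors, which lay between 0.667 and 1.24. Levels are given in CPM, the reads per gene relative to this scaled library size.

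The sequences of the miRNAs that the decoy targets are given from RefSeq (GRCm38.p6) with the seed, bases 2 to 8, in capitals. *miR-379-5p* lies on chromosome 12 at 109709065 to 109709085 and *miR-541-5p* at 109742422 to 109742446, both on the plus strand, and their seeds differ. The levels of the miRNAs themselves were not analysed here, and which livers carried the decoy is taken from the labels. The paper reports that the decoy lowered both miRNAs in mouse liver. It also reports lower host transcripts *lncMGC* and *Mirg* and several other lowered miRNAs of the cluster.

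miR-379-5p: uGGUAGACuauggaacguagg
miR-541-5p: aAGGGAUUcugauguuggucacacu

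The reverse complements of the seeds are GTCTACC for *miR-379-5p* and AATCCCT for *miR-541-5p*. Of 10935 genes with an annotated 3′ UTR, 5.72% held the first in their longest 3′ UTR and 9.51% held the second. Among the 10 genes, *Tfe3* held both (its UTR has 2598 bases) and *Fnip2* held the *miR-541-5p* match (3689 bases). Matches were more common in long UTRs. Among genes with a UTR of like length, 8.27% (*miR-379-5p*) and 12.9% (*miR-541-5p*) held them for *Tfe3*. The *miR-541-5p* share was 19.2% for *Fnip2*, and the shares at the length of *Rragd* were 9.04% and 17.9%. No match was found in the other 8 genes, *Rragd* with its 3382-base UTR among them. The matches are shown in capitals within 26 bases of UTR, as the only 7-base matches found in the UTRs of these genes. They start at bases 214 and 1759 of the *Tfe3* UTR and base 934 of the *Fnip2* UTR.

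Tfe3, miR-379-5p match: ggtcaaacagtacttGTCTACCacac
Tfe3, miR-541-5p match: cacccctggagggttAATCCCTatct
Fnip2, miR-541-5p match: agttctgcactttttAATCCCTctca

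Such a match is a string of letters and was not tested as a binding site. Seeds of the other miRNAs of the same cluster were not searched, so these matches do not cover all that the decoy lowered. The levels of these genes are given below with those of the other members.

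*Rragd* (chromosome 4, 32983037 to 33022180) encodes RagD, the partner of RagA/B that can stand in for RagC. It was the lowest of the 10 mRNAs in the control livers and the one member with a large difference between the groups. In the AAV-NC livers 1, 2, 6, 7 and 8 it had 6, 8, 8, 8 and 8 reads, or 0.716, 1.01, 0.885, 1.002 and 0.779 CPM. In the AAV-TuD livers 3, 4, 5, 9, 10 and 11 it had 32, 23, 9, 25, 24 and 28 reads, or 3.01, 2.10, 0.956, 2.02, 2.07 and 2.39 CPM. Of the AAV-TuD livers 5 were above every control, while AAV-TuD 5 lay within the control range, so the groups overlapped. The highest and the lowest AAV-TuD value (livers 3 and 5) both came from libraries with most *Mup* reads, and the other AAV-TuD livers lay between 2.02 and 2.39 CPM. The group means were 0.878 ± 0.130 CPM (SD, n = 5) and 2.09 ± 0.666 CPM (SD, n = 6), and the fitted log2 fold change was 1.26 (SE 0.28). Over all reads, 141 in the AAV-TuD livers against 38 in the controls gave a ratio of read rates of 2.43. No control liver reached the filter of more than 10 reads and 5 AAV-TuD livers did, so the gene entered the table only through the group in which it was high. Without AAV-TuD 5 the fitted log2 fold change was 1.39, and it was between 1.13 and 1.39 over all fits that left out a single liver. Without AAV-TuD 3, 4, 9, 10 or 11 the gene no longer passed the filter. Those values, the 1.13 without AAV-TuD 3 among them, came from fits with no filter that were added later.

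*Rragc* (chromosome 4, 123917446 to 123936997), which encodes the other partner of RagA/B, did not pass the test. Its mRNA was at 20.7 ± 1.002 CPM (SD, n = 5) with AAV-NC and 21.5 ± 2.41 CPM (SD, n = 6) with AAV-TuD. On the log2 scale it differed by 0.05 (95% interval -0.14 to 0.24, adjusted p = 0.773, edgeR). The share of *Rragd* in the reads of both genes lay between 3.43% and 4.94% in the control livers and between 4.92% and 12.9% in the AAV-TuD livers, where AAV-TuD 5 was again the lowest. Summed over livers it was 4.03% (38 of 943 reads) with AAV-NC and 8.93% (141 of 1579 reads) with AAV-TuD, and these shares are a description of the same values that chose the gene. The *Rragd* transcript thus remained the minor partner by read number in all 11 livers.

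**Figure D1:**
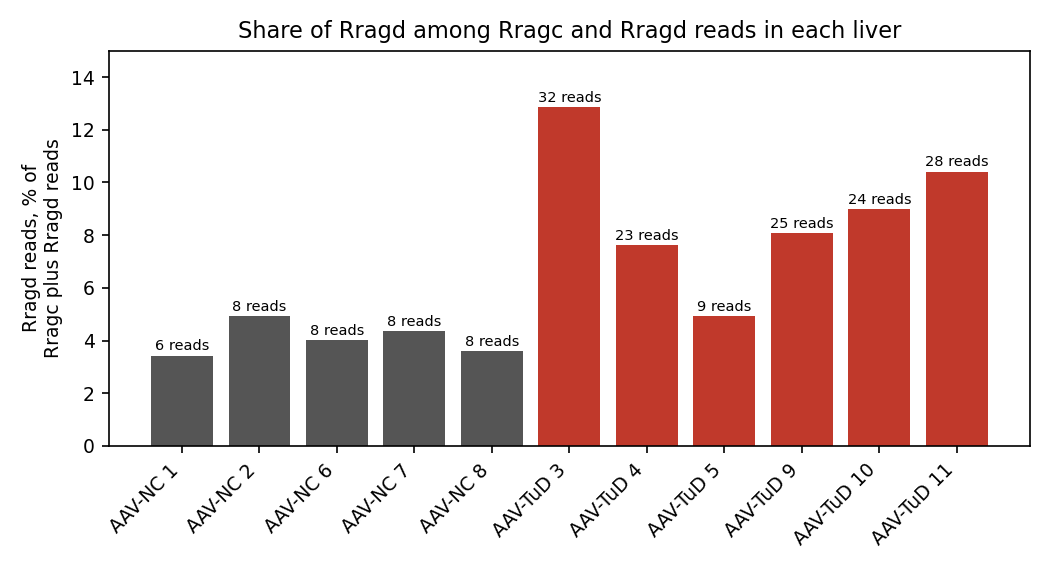
Each bar is the percentage of *Rragd* among the reads of *Rragc* and *Rragd* in a liver, with the number of *Rragd* reads above it (AAV-NC grey, n = 5, and AAV-TuD red, n = 6). Shares were 3.43% to 4.94% in AAV-NC livers, and AAV-TuD 5, at 4.92%, was the only AAV-TuD liver within that range.

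*Rraga* (chromosome 4, 86575668 to 86577285) encodes RagA, the nucleotide switch that responds to amino acids. It varied more between livers than *Rragc* and did not pass the test. The AAV-NC livers were at 32.0, 32.2, 50.2, 39.3 and 34.9 CPM, and the AAV-TuD livers ran from 31.6 over a median of 41.9 to 52.5 CPM. A single AAV-TuD liver was above all controls and a single one below them. The log2 fold change was 0.15 (SE 0.14, interval -0.14 to 0.44, adjusted p = 0.533, edgeR).

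*Lamtor1* (chromosome 7, 101905904 to 101926675) was the most abundant of the 10 by read number. It was at 47.4 ± 2.94 CPM (SD, n = 5) with AAV-NC and 52.6 ± 6.34 CPM (SD, n = 6) with AAV-TuD, where livers 4 and 10, at 60.5 and 60.9 CPM, lay above the control range. A log2 fold change of 0.15 was fitted (interval -0.03 to 0.33, adjusted p = 0.297, edgeR). Of the 31-base words in the last 500 bases of its transcripts, 9.93% also occur in the pseudogenes *Gm13077* and *Gm5510*, and *Lrrc51* lies on the opposite strand near its 3′ end, so its level is uncertain where reads could be split or shared.

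The folliculin complex was measured at 3 unequal levels. *Fnip1* (chromosome 11, 54438199 to 54518235) was the highest and came closest to the threshold of all 9 tested genes. Its control values were 24.9, 22.2, 20.6, 23.0 and 22.8 CPM, and its AAV-TuD values were 23.6, 24.6, 22.5, 23.97, 33.6 and 31.7 CPM. Livers 10 and 11 stood above the controls, while the other AAV-TuD livers lay within the control range. Its log2 fold change was 0.23 (SE 0.11, interval -0.01 to 0.47), with an adjusted p = 0.202 in edgeR.

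*Fnip2* (chromosome 3, 79455974 to 79567796), which carries the *miR-541-5p* match, was at 7.97 ± 1.03 CPM (SD, n = 5) in controls and 8.75 ± 1.47 CPM (SD, n = 6) with AAV-TuD. AAV-TuD 4, 10 and 11 were above the control range and AAV-TuD 5, at 6.27 CPM, was below it. This gave a log2 fold change of 0.14 (interval -0.15 to 0.43, adjusted p = 0.573, edgeR). *Gm17359* lies on the opposite strand near the *Fnip2* 3′ end, and the strand setting of the counting is not given in the sources used here. The balance of these mRNAs was measured by the mean log2 ratio of *Fnip2* to *Fnip1*, which was -1.51 ± 0.151 (SD, n = 5) in control livers and -1.60 ± 0.259 (SD, n = 6) in decoy livers. The difference of -0.09 gave p = 0.465 and adjusted p = 0.771 in a two-sided exact permutation test, with 2 ratios tested.

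*Flcn* (chromosome 11, 59791408 to 59810016) encodes folliculin, the catalytic subunit. In controls it was at 2.98, 2.64, 2.66, 2.75 and 4.96 CPM, and in AAV-TuD livers at 3.85, 2.73, 2.76, 3.48, 5.43 and 4.02 CPM. The control liver AAV-NC 8 stood far above the other controls and higher than 5 of the 6 AAV-TuD livers. Its log2 fold change was 0.20 (interval -0.28 to 0.69, adjusted p = 0.624, edgeR), and it was 0.43 without AAV-NC 8 (adjusted p = 0.237) and 0.07 without AAV-TuD 10 (adjusted p = 0.899). The gene had between 21 and 63 reads per liver, and changes within the interval of -0.28 to 0.69 remained compatible with these counts.

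None of the MiT/TFE factors passed the test. *Tfe3* (chromosome X, 7762560 to 7775202) was the most abundant of these factors, at 11.7 ± 1.71 CPM (SD, n = 5) with AAV-NC and 11.8 ± 1.54 CPM (SD, n = 6) with AAV-TuD. All 6 AAV-TuD livers lay within the control range of 9.19 to 14.02 CPM. The log2 fold change of 0.01 had an interval of -0.25 to 0.27 (adjusted p = 0.969, edgeR). *Tfe3* was the member with seed matches for both targeted miRNAs.

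*Tfeb* (chromosome 17, 47737030 to 47792419), the best-known regulator of lysosome formation, was at 2.98, 3.15, 2.99, 2.504 and 3.60 CPM in controls and between 2.39 and 3.82 CPM, with a median of 2.73 CPM, with AAV-TuD. The log2 fold change was -0.03 (interval -0.42 to 0.36, adjusted p = 0.946, edgeR). *Mitf* (chromosome 6, 97807052 to 98021349), best known from pigment cells, was at 5.33 ± 0.980 CPM (SD, n = 5) and 4.98 ± 0.437 CPM (SD, n = 6), and again no AAV-TuD liver left the control range. Its log2 fold change was -0.10 (interval -0.41 to 0.20, adjusted p = 0.715, edgeR). When library sizes were left without TMM factors, the median of all genes moved to 0.23, and *Tfeb* and *Mitf* turned to 0.19 and 0.16, below that median. The mean log2 ratio of *Tfeb* to *Tfe3* was -1.92 ± 0.240 (SD, n = 5) and -1.97 ± 0.365 (SD, n = 6), a difference of -0.05 (p = 0.771, adjusted p = 0.771, two-sided exact permutation test).

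Of the 9 tested members, 0 passed the adjusted threshold in edgeR, 0 in DESeq2, and 0 had an unadjusted p under 0.05 in edgeR, beside 11.6% of all 13334 genes called (7.24% higher and 4.33% lower). This split depends on the scaling, since 62.6% of the calls were higher with TMM and 95.1% with library size alone. Their median log2 fold change was 0.14 and 7 of the 9 were above 0, while the median of all genes was -0.00 with quartiles of -0.16 and 0.20. In none of the 10 genes, *Rragd* included, were the 2 groups free of overlap, against 7.39% of all genes.

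**Figure D2:**
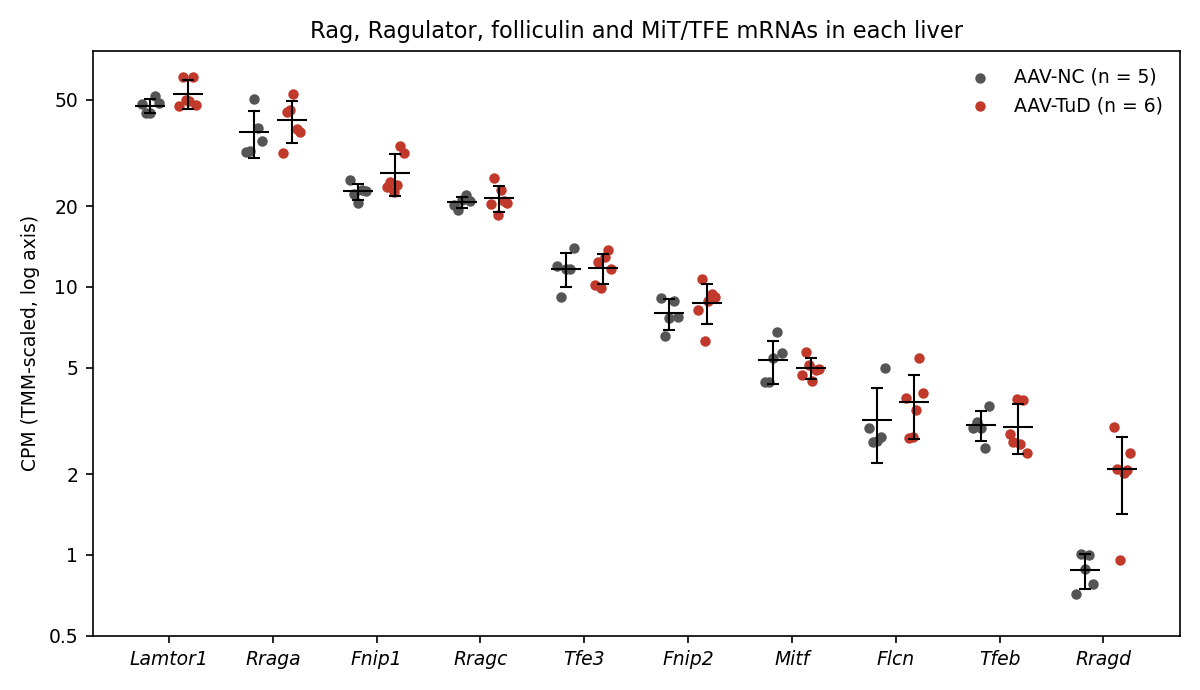
CPM on a log axis for the 10 genes in each liver (AAV-NC grey, n = 5, and AAV-TuD red, n = 6), with black lines for mean and SD, in order of mean level from *Lamtor1* (50.3 CPM) to *Rragd* (1.54 CPM). The groups lie over each other in 9 genes, and in *Rragd* a single AAV-TuD liver falls to the control level.

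**Figure D3:**
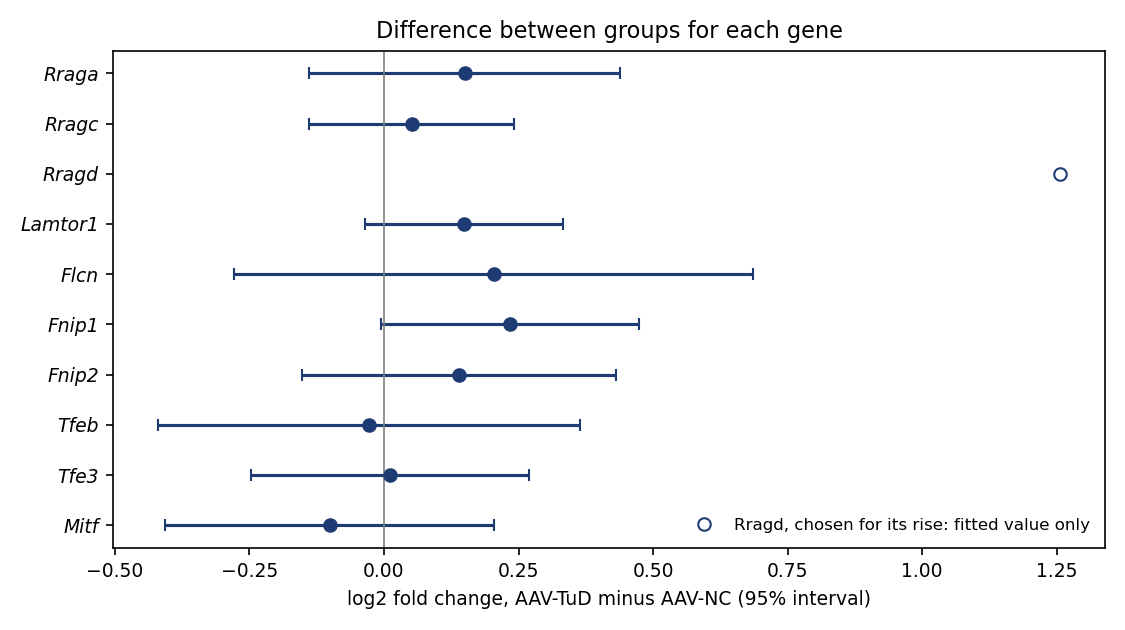
Fitted log2 fold change (AAV-TuD minus AAV-NC) of each gene, with 95% intervals for the 9 tested genes and an open circle without interval for *Rragd*. All 9 intervals include 0, and *Rragd* is at 1.26.

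By mean level over the 11 livers the order was *Lamtor1*, *Rraga*, *Fnip1*, *Rragc*, *Tfe3*, *Fnip2*, *Mitf*, *Flcn*, *Tfeb* and *Rragd*, from 50.3 CPM over 24.9 CPM for *Fnip1* and 11.7 CPM for *Tfe3* down to 1.54 CPM. *Rraga* was above *Fnip1*, *Rragc* above *Tfe3*, *Tfe3* above *Fnip2* and *Fnip2* above *Mitf* in 11 of 11 livers. *Flcn* and *Tfeb* were not clearly ordered, with *Flcn* higher in 7 of 11 livers. *Lamtor1* exceeded *Rraga*, and *Fnip1* exceeded *Rragc*, in 9 of 11 livers, with overlapping ranges.

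The promoter windows of these genes, 250 bases before to 50 bases after the annotated start (RefSeq, GRCm38.p6), were searched for the E-box CACGTG, the core letters that MiT/TFE factors read. The word is its own reverse complement, so both strands were searched at once. It occurred in a window of 8.09% of all 27025 genes, and of the 10 genes it occurred for *Rragc*, *Lamtor1* and *Fnip1*, at positions -112, -68 and -75 from the start. The matches are shown in capitals within 30 bases, at chr4:123917309-123917338 for *Rragc*, chr7:101905757-101905786 for *Lamtor1* and chr11:54438092-54438121 for *Fnip1*, all on the plus strand.

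Rragc promoter E-box: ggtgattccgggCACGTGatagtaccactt
Lamtor1 promoter E-box: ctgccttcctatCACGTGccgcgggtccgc
Fnip1 promoter E-box: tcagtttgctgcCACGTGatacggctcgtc

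The 300-base *Rragd* window at chr4:32982748-32983047 (plus strand) is given whole, because this gene carries the difference between the groups. It holds no CACGTG, which says nothing on elements elsewhere in the gene.

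Rragd promoter: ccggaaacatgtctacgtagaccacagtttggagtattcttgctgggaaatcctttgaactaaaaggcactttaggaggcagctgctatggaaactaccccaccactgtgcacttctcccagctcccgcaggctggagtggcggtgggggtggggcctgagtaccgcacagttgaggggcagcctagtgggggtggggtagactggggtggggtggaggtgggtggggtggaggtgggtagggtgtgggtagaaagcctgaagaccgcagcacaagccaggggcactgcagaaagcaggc

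The other genes of the pathway were taken from lists of 86 genes, of which 76 were tested, and 7 were higher and 1 was lower with AAV-TuD, beside 7.24% and 4.33% of all genes. The 7 include *Gpnmb*, which passed the filter only through the AAV-TuD livers. Their median log2 fold change was 0.05. Of the other Rag and Ragulator subunits (4 tested), the GATOR1, GATOR2 and KICSTOR proteins that set the RagA/B nucleotide (10 tested), mTORC1 with its TSC-Rheb switch (9 tested) and the enzymes and channels that act on MiT/TFE location (11 tested), 0 passed in either direction in edgeR. The 10 listed genes that were not tested, *Rragb* and *Castor1* among them, were not analysed here.

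Of 9 amino acid sensors and Rag modifiers tested, 2 rose, beside 7.24% of all genes. All 9 had a fitted difference above 0, with a median of 0.30 against -0.00 for all genes. The list was chosen with earlier results of these data known, so these small counts are not read as a result about it. *Castor2*, which encodes a homolog of the arginine sensor that restrains GATOR2, was at 1.43, 1.64, 0.885, 2.13 and 0.876 CPM in controls and between 2.19 and 3.36 CPM, with a median of 2.79 CPM, with AAV-TuD. The groups did not overlap, and the log2 fold change was 1.03 (SE 0.25, adjusted p = 0.0144, edgeR). Over 10 reads of *Castor2* were counted in 3 control livers and in 6 AAV-TuD livers. *Slc36a1*, the lysosomal amino acid transporter that signals to the Rags, rose by 0.55 on the log2 scale (SE 0.15, adjusted p = 0.0286, edgeR), with 5 of 6 AAV-TuD livers above all controls. This call was lost on leaving out any of 6 livers (AAV-NC 1, 2 and 6, and AAV-TuD 4, 5 and 10), with an adjusted p between 0.0522 and 0.0732. Its last 500 bases share 5.90% of their 31-base words with *Slc36a2* and *Slc36a3*, and its 3′ UTR holds a *miR-541-5p* seed match.

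Genes known as MiT/TFE targets gave calls in both of their lists. Of 19 lysosomal targets tested 2 rose and 1 fell, with a median log2 fold change of 0.11, and of 14 autophagy and other targets 3 were higher and 0 lower, with a median of -0.05. By list, 3 lysosomal targets (15.8%) and 3 other targets (21.4%) were called, beside 11.6% of all genes. The lists were chosen with results of these data known, and the other targets called include *Gpnmb*, which passed the filter only through the AAV-TuD livers. Such small counts are not read as a result about the lists, and the activity of the factors was not tested. *Cd63*, a tetraspanin of late endosomes, was between 2.38 and 8.97 CPM in controls and between 13.1 and 33.3 CPM with AAV-TuD, without overlap, and rose by 1.92 on the log2 scale (SE 0.28, adjusted p = 8.08e-04, edgeR). *Cd63* shares 42.8% of the 31-base words of its last 500 bases with the pseudogene *Cd63-ps*, which was counted at 27 to 66 reads per liver, so its level is uncertain. *Hexa*, the alpha subunit of lysosomal hexosaminidase, rose by 0.69 (SE 0.13, adjusted p = 0.00357, edgeR) from 9.88 ± 1.69 CPM (n = 5) to 16.04 ± 2.16 CPM (n = 6, SD).

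*Gaa*, the lysosomal glucosidase that breaks down glycogen, fell by 0.38 on the log2 scale (SE 0.12, adjusted p = 0.0459, edgeR), from 14.8 ± 2.28 CPM (n = 5) to 11.4 ± 1.25 CPM (n = 6, SD). The call was lost with library size alone (-0.16, adjusted p = 0.653) and on leaving out any of 8 livers, AAV-NC 2, 6 and 8 and AAV-TuD 3, 4, 9, 10 and 11, with an adjusted p between 0.0512 and 0.122. Its 3′ UTR holds a *miR-379-5p* seed match, and the 6 higher genes other than *Slc36a1* hold neither match.

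Among the other targets, *Gdf15*, a stress-induced circulating factor, was between 4.06 and 7.64 CPM in controls and between 11.4 and 36.5 CPM with AAV-TuD, and rose by 1.73 on the log2 scale (SE 0.27, adjusted p = 0.00114, edgeR). *Wipi1*, a phosphoinositide-binding protein of autophagosome formation, rose by 0.55 (SE 0.12, adjusted p = 0.0102, edgeR), with all 6 AAV-TuD livers above the controls. *Gpnmb*, a glycoprotein of lysosome-rich cells and macrophages, had 0 reads in 4 of 5 control livers and 3 reads in AAV-NC 8, against 10, 53, 11, 19, 32 and 20 reads in the AAV-TuD livers. No control liver and 5 AAV-TuD livers were over the filter, so the gene was tested only through the group in which it was high and its p is not given. The 145 against 3 reads gave a ratio of read rates of 31.6, a description that pools reads over livers and leaves out the spread between them.

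**Figure D4:**
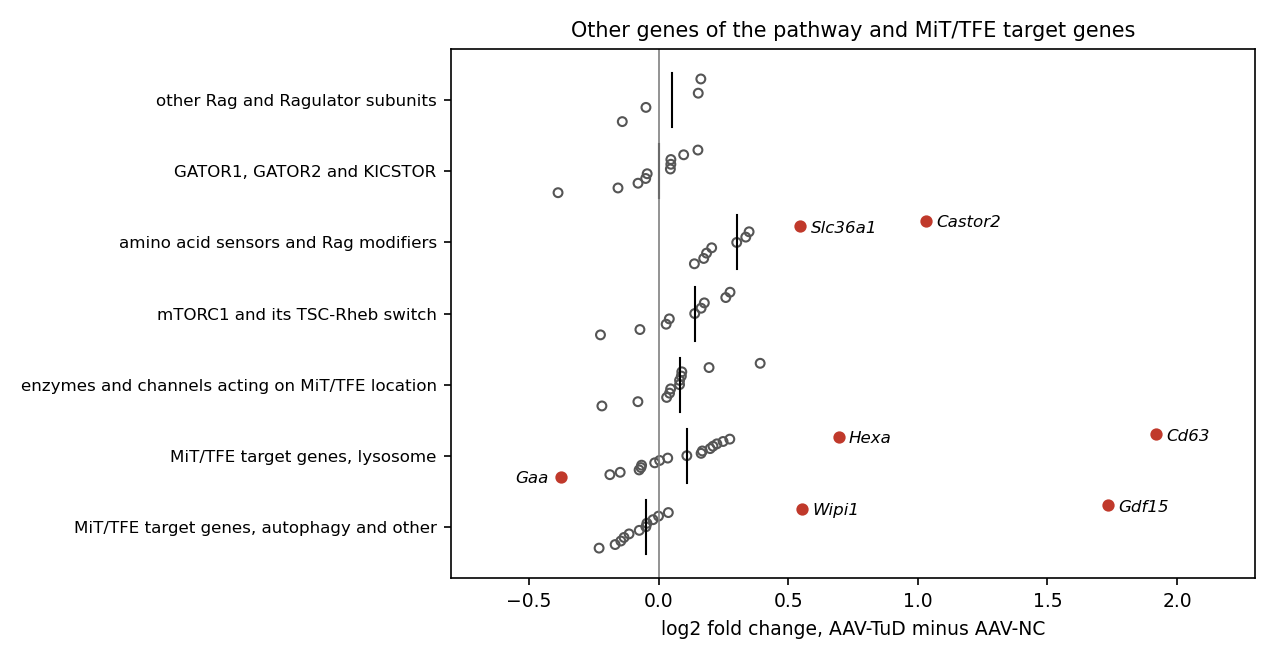
Fitted log2 fold change (AAV-TuD minus AAV-NC) of the tested genes in 7 lists, with called genes filled and named, other genes open, and the median of each list as a black line. *Gpnmb* is counted in its median but not drawn, since 4 of 5 control livers had 0 reads. The lists of GATOR subunits, mTORC1 and location enzymes hold no called gene.

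Markers of several other cell types were higher with AAV-TuD, beside 7.24% of all genes called higher. Of 8 sinusoidal endothelial markers 0 were called. Of 8 Kupffer cell markers 5 rose, with a summed level of 91.1 to 138 CPM in controls and 103 to 289 CPM with AAV-TuD. Of 8 markers of recruited and lipid-associated macrophages 6 were tested, and 5 were higher (*Gpnmb* among them), with a summed level of 49.6 to 66.5 CPM against 91.1 to 175 CPM, while *Trem2* and *Itgax* were not analysed here. Of 8 hepatic stellate cell markers 7 rose, with sums of 178 to 244 CPM against 311 to 427 CPM. Of 4 cholangiocyte markers tested 3 were higher, with sums of 21.6 to 38.4 CPM against 39.6 to 55.5 CPM. *Epcam* passed the filter only through the AAV-TuD livers, and *Krt19* had over 10 reads in 1 control liver and 5 AAV-TuD livers. Hepatocyte markers, which were present at high levels in every liver (33859 to 40879 CPM in sum with AAV-NC and 43777 to 49905 CPM with AAV-TuD), gave 1 higher and 2 lower of 10. *Alb* made the largest part of these sums (means of 21096 CPM with AAV-NC and 28044 CPM with AAV-TuD) and was not called (adjusted p = 0.0805, edgeR). The median log2 fold change of the list was -0.03.

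Set beside *Rragd*, these sums did not all follow the same order of livers. AAV-TuD 4, 9, 10 and 11 combined *Rragd* above every control with Kupffer sums of 158 to 289 CPM, also above every control. AAV-TuD 3, with the highest *Rragd*, had a Kupffer sum of 103 CPM, inside the control range, and AAV-TuD 5, with *Rragd* at the control level, had 227 CPM. The cholangiocyte sum was lowest of the AAV-TuD livers in AAV-TuD 5 (39.6 CPM) and highest in AAV-TuD 11 and 3 (55.5 and 55.1 CPM). Among the controls *Rragd* had 6 to 8 reads per liver, too few to order them. The stellate sum was lowest of the AAV-TuD livers in AAV-TuD 5 (311 CPM). It was next lowest in AAV-TuD 3 (346 CPM), with the highest *Rragd*, and highest in AAV-TuD 10 (427 CPM). The part of RNA from macrophages, stellate cells or cholangiocytes in the levels of *Rragd*, *Gpnmb*, *Cd63*, *Hexa* and *Gdf15* was not tested.

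**Figure D5:**
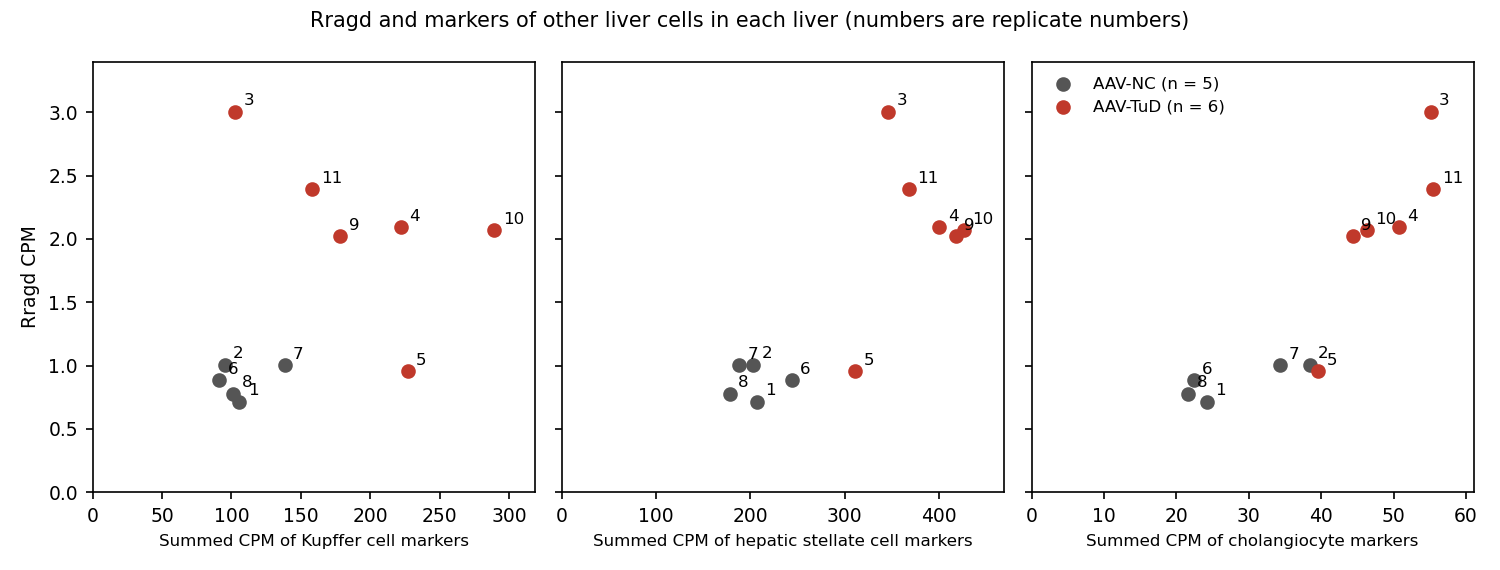
*Rragd* CPM against the summed CPM of Kupffer cell, hepatic stellate cell and cholangiocyte markers in each liver (AAV-NC grey, n = 5, and AAV-TuD red, n = 6), with replicate numbers beside the points. AAV-TuD 5, with *Rragd* at the control level, has the lowest stellate and cholangiocyte sums of its group (311 and 39.6 CPM) but a Kupffer sum of 227 CPM. AAV-TuD 3, with the highest *Rragd*, has the next lowest stellate sum (346 CPM).

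Genes whose level followed *Rragd* within the groups were ranked by the correlation of their log2 CPM after subtraction of group means, over 11 livers and the 8372 genes that averaged 50 or more reads. The highest were *Rab11fip2* (r = 0.94), *Lemd3* (0.91), *Matr3* (0.90), *Birc6* (0.88) and *Fnbp4* (0.86), and the lowest were *Map7d1* (-0.90), *Uck1* (-0.88) and *Lipt1* (-0.87). These are extremes of many sparse correlations and describe these livers only, since *Rragd* rests on 6 to 32 reads per liver and the values share depth and scaling. With library size alone, 1 of the 5 highest genes remained among the 5 highest. Among the members, r with *Rragd* ran from -0.59 for *Tfeb* to 0.46 for *Fnip2*.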

How the data were processed

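Livers of 5 AAV-NC and 6 AAV-TuD mice were compared, each labelled as a separate sample, so that p-values measure the spread between these samples, in QuantSeq 3′ libraries from 500 ng RNA. The authors trimmed the reads, aligned them to GRCm38 with STAR (2.5.3a in the submitters' processing notes) and counted them per gene, and the deposited values are raw counts for 13669 genes. The annotation, strand setting and handling of multiply matching reads are not given in the sources used here. Sequencing batches are not named.

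The test covered genes for which 5 or more livers had over 10 reads, by edgeR 4.0.16 quasi-likelihood F-test (R 4.3.3, TMM, Benjamini-Hochberg adjustment over 13334 genes, adjusted p under 0.05). DESeq2 1.42.0, other scalings, no filter and each liver left out were alternatives, and leaving out the 3 livers with most *Mup* reads, or single livers with no filter, was added after the data had been seen. Ratios of counts used a pseudocount of 0.5. The scripts were tested on simulated data. Seed matches used the longest 3′ UTR of GENCODE M21. The members and all gene lists were chosen with earlier results of these data known. Named genes were the 10 members, up to 4 called genes per list and direction with the smallest p, the 5 highest and 3 lowest correlates of *Rragd*, and leading markers where a result turned on them.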

Additional observations from a re-analysis of the deposited data

Results flagged for a closer look

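In 3 of 56 groups of values a liver stood apart from the rest of its group by Dixon's criterion, where chance alone would give about 2.8. For *Flcn*, AAV-NC 8 was at 4.96 CPM, with the next control at 2.98 and the lowest at 2.64 CPM, so that this gap was 0.853 of the range. For *Gpnmb*, AAV-NC 8 was the only control with reads, at 0.292 CPM against 0 in the others, and the gap was 1 of the range. For the summed hepatocyte markers, AAV-TuD 9 was at 49905 CPM, with the next liver at 44592 and the lowest at 43777 CPM, a gap of 0.867 of the range.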

How the results depend on the processing

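The 9 tested members stayed at 0 calls under all 17 alternatives. Of all genes, 1543 were called, and between 1012 (without AAV-TuD 4) and 1829 (without AAV-TuD 3) with a single liver left out. Of the pathway lists, 7 genes were higher, with 5 to 10 on leaving out a liver, and 1 was lower, with 0 to 1 on leaving out a liver and 0 with library size alone. Of the 5 highest correlates of *Rragd*, 1 was kept with library size alone. Without the 3 livers with most *Mup* reads, 8 pathway genes were higher and 1 lower, while *Rragd* and *Gpnmb* no longer passed the filter and gave no value. The list of enzymes acting on MiT/TFE location then had 1 call, as it had with library size alone and without AAV-TuD 3, and the mTORC1 list had 1 without AAV-TuD 3. The cause of these shifts was not tested. Under the alternatives run, none of the 8 called pathway genes changed direction. No paired analysis was possible because the 2 groups share no replicate number. Among the members and the called pathway genes, depth limits *Rragd*, *Flcn*, *Tfeb*, *Castor2* and *Gpnmb*, with means below 50 reads per liver.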

Other observations

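Markers of further liver cells were measured in the same libraries. Of 8 sinusoidal endothelial markers 0 were called in edgeR, and their sums were 263 to 279 CPM with AAV-TuD and 263 to 290 CPM with AAV-NC. A single lymphocyte marker of 7, *Ptprc*, was tested and was higher with AAV-TuD.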
